A study of Mus musculus with 2 samples.

Results

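The 1128 regions described here are pieces of the mouse genome that lay between genes, over 10 kb and up to 50 kb from the nearest annotated transcription start, and that were listed in a genome-wide reporter assay in activated T helper 1 (Th1) cells. They were taken from a deposited table of 14994 listed regions (14627 of them on chromosomes 1 to 19) by 4 conditions on position and sequence alone. These were a centre in no annotated gene, that distance, at least 40% G plus C, and at most 50% soft-masked (repeat-derived) bases. Measured activity was not used to choose among the listed regions. The assay was STARR-seq, in which a fragment of genomic DNA is carried in the transcribed part of a reporter, so that a fragment with enhancer activity raises the amount of RNA made from itself.

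Both output libraries came from primary Th1 cells of C57BL/6NJ mice that carried the reporters as episomes after transient transfection, and they formed the only group. Cells were held for 4 days with interleukin-2, interleukin-12 p70 and anti-interleukin-4, and for 3 days with anti-CD3e and anti-CD28. The labels give 10 ng/mL of each interleukin (readable for replicate 1), 0.25 ug/mL of anti-CD3e, and 1 ug/mL of anti-CD28 and 2 ug/mL of anti-interleukin-4 (readable for replicate 2). The age is given as unknown, the 2 biological replicates have 1 donor identifier, and no untreated or other cell type was included. An episome does not hold a fragment at its own place in the chromosome, and no sequence here was tested together with the gene it lies near.

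For each region the table gives 1 effect, its p-value and its q (the p-value adjusted for multiple tests), made from both libraries together. No value of a single library was used, so the spread between replicates is unknown and no effect can be given with an SD. The depth is unknown too. The scale and sign convention of the effect are not stated. A positive effect is read here as more RNA output than expected from the input, and a negative effect as less. Every listed region had a q under 0.01, and the p and q values imply 114722 tested regions, of which 13.1% were listed.

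Intergenic sequence at this distance holds many of the enhancers through which distant signals reach a promoter. In T cells, AP-1 dimers (Fos, Jun and BATF proteins), NFAT and NF-kB are activated through the antigen receptor and costimulation, STAT proteins through cytokine receptors, and T-bet and RUNX3 direct the Th1 programme. CTCF binds insulators and the anchors of chromatin loops, and GATA3 is best known for the opposing Th2 fate.

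To show what the regions look like, 6 central sequences are printed below on the + strand of mm10 (GRCm38). Capitals mark matches, on either strand, to the AP-1 (TGACTCA), STAT (TTCNNNGAA), IRF/ISRE (GAAANNGAA), RUNX (TGTGGTT) and NFAT (TGGAAAA) consensus. Matches to other consensus sequences stay in lower case. The first was the highest region found at 1 place in the genome, and next come the lowest pair found at 1 place. The others lay near Tbx21, Runx1 and Cish. Here and below, a region is near a gene whose start was the nearest protein-coding start, within 100 kb. A start of another kind of gene may be closer.

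chr17:85860801-85861100, effect 3.49: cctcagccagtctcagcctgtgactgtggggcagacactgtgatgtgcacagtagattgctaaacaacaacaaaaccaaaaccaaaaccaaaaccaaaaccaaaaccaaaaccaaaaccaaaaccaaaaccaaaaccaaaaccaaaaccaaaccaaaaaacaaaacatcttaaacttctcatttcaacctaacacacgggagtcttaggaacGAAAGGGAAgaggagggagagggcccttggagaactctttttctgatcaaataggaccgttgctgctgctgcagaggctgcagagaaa

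chr10:11491963-11492262, effect -5.93: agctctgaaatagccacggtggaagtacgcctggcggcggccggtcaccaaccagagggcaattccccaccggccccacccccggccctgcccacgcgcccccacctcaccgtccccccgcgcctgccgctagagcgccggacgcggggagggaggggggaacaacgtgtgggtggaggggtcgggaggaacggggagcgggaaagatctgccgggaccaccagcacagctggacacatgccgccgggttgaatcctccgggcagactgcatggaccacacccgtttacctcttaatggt

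chr19:49685676-49685975, effect -2.68: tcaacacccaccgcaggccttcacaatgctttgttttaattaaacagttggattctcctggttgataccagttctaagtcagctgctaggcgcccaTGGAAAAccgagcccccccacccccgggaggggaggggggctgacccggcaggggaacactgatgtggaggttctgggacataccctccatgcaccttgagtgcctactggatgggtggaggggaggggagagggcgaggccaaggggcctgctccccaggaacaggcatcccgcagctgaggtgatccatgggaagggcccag

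chr11:97126951-97127250, near Tbx21, effect 1.01: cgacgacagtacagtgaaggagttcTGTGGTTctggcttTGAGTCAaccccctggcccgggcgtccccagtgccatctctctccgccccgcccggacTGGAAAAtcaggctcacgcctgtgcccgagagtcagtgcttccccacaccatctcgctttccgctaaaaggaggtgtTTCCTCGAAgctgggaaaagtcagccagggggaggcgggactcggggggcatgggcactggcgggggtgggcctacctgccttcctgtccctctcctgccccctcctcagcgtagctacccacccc

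chr16:92899801-92899950, near Runx1, effect 1.22: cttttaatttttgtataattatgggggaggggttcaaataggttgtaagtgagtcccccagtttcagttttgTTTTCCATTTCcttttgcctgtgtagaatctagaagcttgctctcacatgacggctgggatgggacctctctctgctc

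chr9:107312863-107313162, near Cish, effect 1.83: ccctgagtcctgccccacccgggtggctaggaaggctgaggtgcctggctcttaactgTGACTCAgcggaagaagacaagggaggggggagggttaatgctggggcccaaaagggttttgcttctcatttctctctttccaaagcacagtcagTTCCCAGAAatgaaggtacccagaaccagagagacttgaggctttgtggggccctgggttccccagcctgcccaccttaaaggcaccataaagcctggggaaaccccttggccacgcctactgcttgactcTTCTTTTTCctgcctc

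The chr17 region held a run of A-rich simple repeat and an IRF/ISRE match. The chr10 region had no match to these 5 and 65.8% G plus C. The Tbx21 sequence, 11770 bp upstream of the gene for T-bet, carried AP-1, STAT, RUNX and NFAT matches within 300 bp. The Runx1 region lay 73726.5 bp upstream of the Runx1 start, and the nearest annotated start was that of the non-coding RNA gene Gm49723. In its sequence, an NFAT match overlapped an IRF/ISRE match. The Cish sequence, 16303 bp downstream of the start of a STAT5-induced cytokine feedback gene, held AP-1, STAT and IRF/ISRE matches.

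The next sites show CTCF, the consensus that stood furthest above the genome windows described below. They are 25-base stretches turned so that the match, in capitals, reads the same way. They were chosen by the effect of their regions, from positive regions found at 1 place in the genome, with the 1 negative region last.

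CTCF, chr14:19175494-19175518 (+), effect 1.99: aagtggCCACTAGATGGCAgtgata

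CTCF, chr12:21525754-21525778 (+), effect 1.94: atatggCCACTAGGGGGCAggaaca

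CTCF, chr1:33684653-33684677 (+), near Prim2, effect 1.32: gaatgcCCACTAGGTGGCActcaaa

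CTCF, chr2:71155678-71155702 (+), near Cybrd1, effect 1.07: caatagCCACCAGGTGGCAgcaacc

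CTCF, chr4:139858846-139858870 (-), near Pax7, effect 0.98: gtgtggCCACTAGGTGGCAgcattg

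CTCF, chr13:98589133-98589157 (-), near Tmem174, effect 0.96: gaatggCCACGAGGGGGCAggaaag

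CTCF, chr7:83914754-83914778 (+), near Mesd, effect -1.46: tggttcCCACTAGGGGGCAgcagag

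The last one shares all of its capital letters with the chr12 site, and their effects had opposite signs. The AP-1 sites below were chosen in the same way, with 2 sites of negative regions last.

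AP-1, chr13:58654562-58654586 (-), near Slc28a3, effect 2.81: aggacacacTGACTCAccacaggac

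AP-1, chr6:49236400-49236424 (+), near Igf2bp3, effect 2.76: cgaacagggTGACTCAcaactttct

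AP-1, chr9:57203759-57203783 (+), near Trcg1, effect 2.76: tatcttggaTGACTCAttgagcatc

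AP-1, chr1:119438547-119438571 (-), near Inhbb, effect 2.75: ggtggaggcTGACTCAgttctatga

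AP-1, chr5:3152196-3152220 (-), effect 2.55: cggtgactaTGACTCAgggagaagg

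AP-1, chr17:65961762-65961786 (-), near Twsg1, effect 2.19: tgtcagttaTGACTCAcactttaca

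AP-1, chr3:138686816-138686840 (-), near Tspan5, effect -1.58: gggctctgcTGACTCAtaactgctt

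AP-1, chr10:89406575-89406599 (+), near Gas2l3, effect -1.44: tcagtgacaTGACTCActaggtaaa

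The same AP-1 heptamer stood in the central 300 bp of regions on both sides of zero. The Igf2bp3 site lay within the 300 bp searched but outside its region, which was 150 bp wide. The bases beside the heptamer were not tested.

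Most of the listed intergenic regions had a positive effect, read here as raised reporter output. Of the 1128 regions, 1021 had a positive effect (90.5%, exact 95% interval 88.7 to 92.2) and 107 a negative one (9.49%), against 80.6% positive and 19.4% negative over all listed regions of chromosomes 1 to 19. The largest class of that table was 7581 regions within 1 kb of a start, of which 74.8% were positive. Intervals here cover counting error over regions only, and neighbouring regions need not be independent. The median effect was 0.78 in positive regions (quartiles 0.65 and 1.04) and -0.96 in negative ones (quartiles -1.33 and -0.78). The median width was 475 bp, with a range from 50 to 1550 bp. An absolute effect over 1 was found in 325 regions and one over 2 in 77. A q under 0.001 was found in 565 regions, 531 positive and 34 negative. Narrow regions, of under 300 bp, had higher positive effects (median 0.93, 268 regions of both directions) than those of 300 to under 600 bp (0.74, 464) or wider (0.77, 396). Of the 75 multi-copy regions described next, 42 were narrow.

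**Figure D1:**
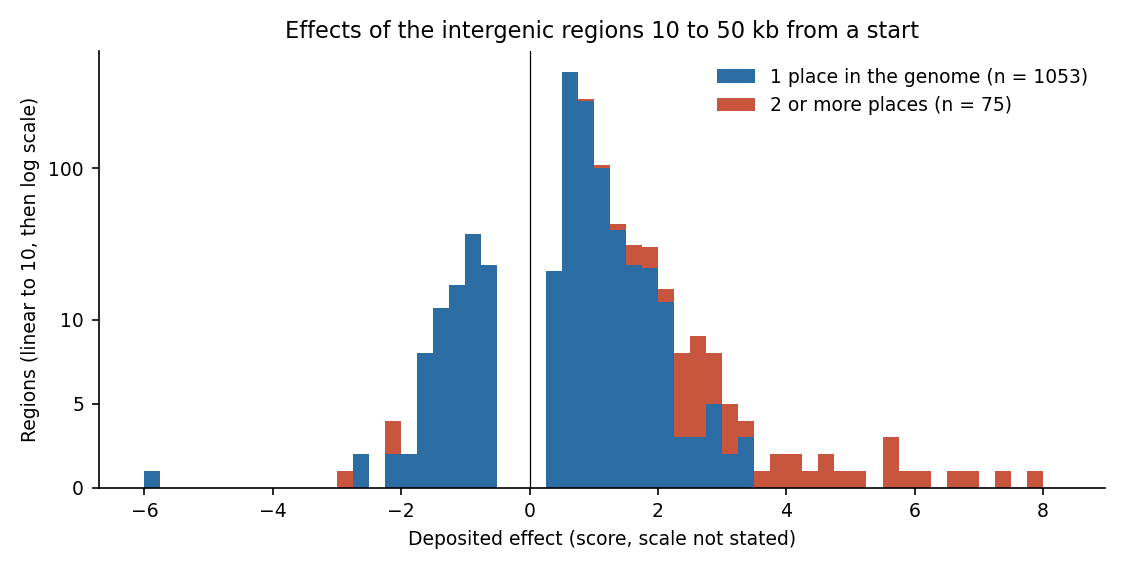
Histogram of the deposited effect (x axis, a score of unstated scale) over the 1128 regions, with the number of regions on the y axis (linear to 10, log scale above). Colours give the number of places in the genome that match the central 300 bp. Effects above 3.49 were all in regions with 2 or more places, and no effect lay between -0.53 and 0.41.

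The highest effects belonged to sequence that occurs more than once in the genome. The central 300 bp of 75 regions (6.65%) matched 2 or more places at 95% identity or more over at least 240 bp. In those regions 72 effects were positive, the median effect was 2.22 and the highest 7.92. In the 1053 regions with 1 place the median effect was 0.73 and the highest 3.49. Multi-copy regions made up 43 of the 77 regions with an absolute effect over 2. Reads from such copies cannot be placed with certainty, and no source used here gives the authors' handling of them, so the part of copy number in these effects was not tested. The highest region of all lay at chr3:5860301-5860575 with 4 places. The next, at 7.35, lay 14204 bp upstream of Gm10128 with 31 places, and that gene had 3 such regions with effects from 3.37 to 7.35. Regions near Atg7 (an autophagy enzyme, effect 6.76), Samd9l (6.51) and Unc93a2 (6.15) followed, with 51, 2 and 3 places. The search kept at most 50 further matches of a sequence, so the 51 at Atg7 may be a minimum. Pdia4, which encodes a protein disulfide isomerase, had 7 regions, 6 of them multi-copy, and their effects ran from -2.86 to 5.68. Those at 5.68 and -2.86 lay 55404.5 and 73454.5 bp downstream of the Pdia4 start, with Rny3 as the nearest annotated start. The regions given to Pdia4 thus held both some of the highest and some of the lowest effects.

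Among single-copy regions the highest effects were 3.49 on chromosome 17, 3.38 near the amino acid transporter gene Slc36a1, 3.29 near Sfi1 (a centrosome protein), and 3.10 near the proteasome subunit gene Psmd7. Each of these 4 had between 43.1% and 49.1% soft-masked bases, close to the 50% limit. Part of each is therefore repeat-derived. Apart from the A-rich run seen in the chromosome 17 sequence, the kind of repeat was not identified here. Copies that are shorter or more diverged than the limits above are not counted. The Sfi1 region lay 83951.5 bp from the Sfi1 start, and it also had the lowest q of all the intergenic regions, 4.26e-16. The lowest effect, -5.93, was the lowest on chromosomes 1 to 19, and the next among these regions was -2.86. A region 26256 bp downstream of the start of Egr1, an immediate early gene of T cell activation, had an effect of -2.12 with a q of 1.37e-09 and 68.8% G plus C.

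Listed sequence thinned out away from transcription starts. The whole intergenic sequence that meets the same limits was divided into 680052 windows of 300 bp (204 Mb), and 0.249% of their centres lay in a listed region, 0.226% in a positive and 0.0229% in a negative one. The share fell with each step of distance, from 0.330% at 10 to 15 kb over 0.277%, 0.252% and 0.190% to 0.140% at 40 to 50 kb. The corresponding shares were 0.392% for intergenic windows at 1 to 10 kb, 0.0896% for those over 50 kb, 0.240% for distal introns, 0.445% for distal exons and 8.08% within 1 kb of a start. These are shares of listed sequence, and the number of fragments tested in each class was not used here.

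Listed sequence became denser with G plus C. Within the 10 to 50 kb windows the share rose from 0.0825% at 40 to under 45% G plus C to 0.205%, 0.525%, 1.23% and 3.38% in the following steps of 5 points, and reached 11.4% in the 446 windows of 65% or more. Windows of equal composition kept the order by distance. At 50 to under 55% G plus C, 0.651% of windows at 1 to 10 kb, 0.525% at 10 to 50 kb and 0.290% over 50 kb were listed, beside 0.404% in distal introns. Base composition also affects amplification and sequencing, and its part in these shares was not tested.

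**Figure D2:**
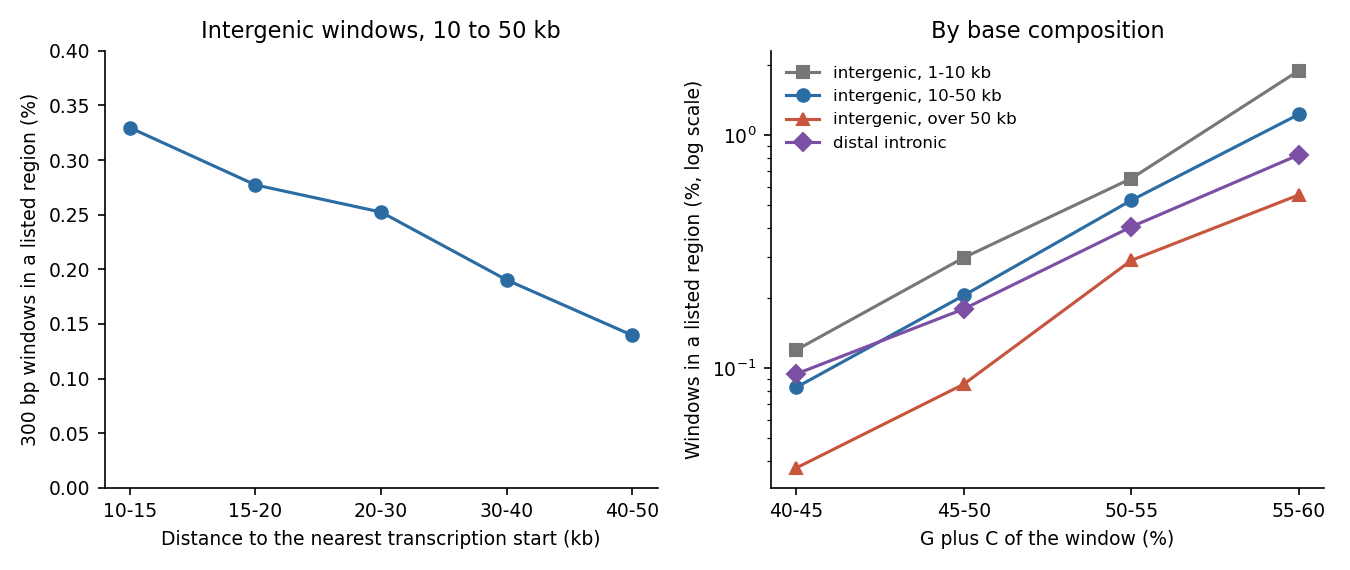
Left, share of 300 bp intergenic windows 10 to 50 kb from a start whose centre lay in a listed region (y axis, percent), by distance to the nearest start (x axis, kb). Right, the same share on a log axis by G plus C of the window for 4 classes of sequence. The share fell from 0.330% to 0.140% with distance, and at each G plus C step the 10 to 50 kb windows lay below the 1 to 10 kb windows and above those over 50 kb.

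The negative share was highest at both ends of base composition. Of 157 regions with 40 to under 45% G plus C, 49 were negative (31.2%, exact 95% interval 24.1 to 39.1). The share was 8.46% of 331 regions at 45 to under 50%, 2.81% of 391 at 50 to under 55%, and 4.05% of 173 at 55 to under 60%. It was 10.9% of 55 regions at 60 to under 65% and 28.6% of 21 regions at 65% or more (interval 11.3 to 52.2). The median G plus C was 45.3% in negative and 51.0% in positive regions. Over the lowest 3 steps, the share of windows in a positive region went from 0.0636% to 0.187% and 0.505%. The share in a negative region was 0.0189%, 0.0175% and 0.0201% over the same steps. A logistic model over all 14627 regions, with G plus C in categories, asked whether the odds of a positive effect at 40 to under 45% G plus C differed further between the intergenic 10 to 50 kb regions and the others. The ratio of odds ratios was 1.36 (95% interval 0.845 to 2.18, p = 0.207, n = 14627), so no difference was found and the interval holds values on both sides of 1.

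**Figure D3:**
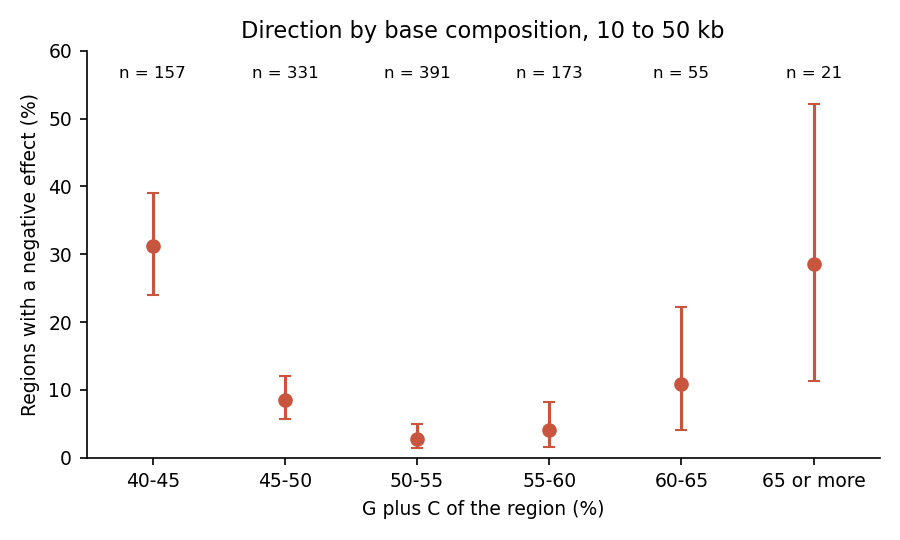
Share of the regions with a negative effect (y axis, percent) by G plus C of the region (x axis, percent), with exact 95% binomial intervals and the number of regions above each point. The share was 31.2% in the lowest step, 2.81% at 50 to under 55% and 28.6% in the 21 regions of 65% or more.

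Direction varied less with position. Positive shares were 91.3%, 92.8%, 91.4%, 85.4% and 88.8% at 10 to 15, 15 to 20, 20 to 30, 30 to 40 and 40 to 50 kb. Of the 700 regions upstream of their nearest protein-coding start 90.4% were positive, and of the 428 downstream 90.7%. Median positive effects in the distance steps lay between 0.76 and 0.79. Just inside the lower distance limit, at 10 to 11 kb, 72 of 77 regions were positive, and just outside it, at 9 to 10 kb, 91 of 98 were. Inside the upper limit, at 45 to 50 kb, 21 of 25 were positive, and outside it, at 50 to 55 kb, 29 of 31. At the G plus C limit, 23 of 38 regions with 40 to under 42% were positive against 8 of 24 with 38 to under 40%.

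Compared with like classes, the odds of a positive effect lay between those of nearer and of more remote intergenic regions. Positive shares were 92.7% of 1167 regions at 1 to 10 kb, 81.6% of 212 over 50 kb and 86.6% of 2891 in distal introns. In a logistic model over 14627 regions, with G plus C in categories and the class as a term, the odds ratio of the 10 to 50 kb regions was 0.68 against 1 to 10 kb (95% interval 0.49 to 0.95), 1.60 against over 50 kb (1.02 to 2.52) and 1.29 against distal introns (1.01 to 1.66). Each had a Benjamini-Hochberg adjusted p of 0.0450 over the 3 contrasts. All 3 calls were lost, with the same direction, when regions of more than 1 place were left out (0.73, 1.41 and 1.27, with adjusted p from 0.107 to 0.142), and at a q under 0.001 (adjusted p from 0.405 to 0.472). Positive effects were 0.08 higher than in distal introns (0.03 to 0.13, adjusted p = 0.00923, n = 11793 positive regions), a call that was also lost without multi-copy regions (0.02, adjusted p = 0.151). Against 1 to 10 kb the difference was 0.02 (adjusted p = 0.873, n = 11793), and against over 50 kb it was -0.01 (adjusted p = 0.901).

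AP-1 was the most frequent of the activation-linked consensus sequences. Its heptamer was found in the central 300 bp of 241 regions (21.4%), against 6.03% of all 680052 windows weighted to the same G plus C, a ratio of 3.54 (95% interval from the count of regions, 3.15 to 3.96). This ratio and those below set listed regions beside all genome windows, and which windows were tested was not used here. The part of that choice in the ratios was not tested. In the 268 regions narrower than 300 bp, the stretch searched for this and every other consensus reached into flanking sequence. The heptamer was as common in positive regions (21.4%) as in negative ones (21.5%). In the other classes it was found in 18.4% of regions at 1 to 10 kb, 25.9% over 50 kb and 24.3% in distal introns. The composite for BATF with IRF4, a pair that acts in activated T cells, was found in 11 regions, at 6.62 times the window share. All 11 had a positive effect, beside 90.5% of all 1128 regions, and their direction was not tested. The longer MAF and BACH type site was found in 19 regions, at 4.31 times. Both sites contain the heptamer, so these regions count among the 241 too. The CRE of CREB and ATF factors (TGACGTCA) was found in 11 regions, at 3.74 times.

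The CTCF consensus stood furthest above the windows. It was found in 30 regions (2.66%) against 0.101% of windows, a ratio of 26.3 (17.8 to 37.4). Of the 30 regions 29 were positive, beside 90.5% of all 1128. The share of regions with the match was 2.74% at 1 to 10 kb, 0.943% over 50 kb and 1.28% in distal introns. Of the 30 regions, 1 also had an AP-1 match, beside 21.4% of all 1128, and this overlap was not tested. The median effect of positive regions with the match was 0.88, against 0.78 without, and the model with G plus C gave a difference of 0.01 (95% interval -0.19 to 0.20).

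STAT and interferon regulatory factor consensus sequences were also frequent. The STAT palindrome was found in 183 regions (16.2%, 1.96 times the windows), and its stricter form (TTCCNGGAA) in 33 (2.79 times). Of these 33 regions 32 were positive, beside 90.5% of all 1128. The IRF/ISRE consensus was found in 153 regions (13.6%, 1.78 times), in 14.2% of positive and 7.48% of negative ones. AP-1 and STAT matches were both found in 48 regions, AP-1 and IRF/ISRE in 32, AP-1 and RUNX in 21, and AP-1 and NFAT in 20. These overlaps were not compared with those that the frequency of each site alone would give.

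The other lineage and activation factors named in this paragraph stood from 0.639 to 5.14 times the window share. RUNX was found in 104 regions (9.22%, 1.49 times), NFAT in 94 (1.29 times), the distal ETS site (ACAGGAAGT) in 24 (2.62 times, all 24 positive) and NF-kB in 13 (5.14 times). The NR4A element NBRE (AAAGGTCA) was found in 31 regions, at 1.83 times. The T-box site (AGGTGTGA), which T-bet and Eomes bind, was found in 19 regions, at 1.02 times with an interval from 0.617 to 1.59. TCF/LEF (ATCAAAG) stood at 0.965 times, and the site of GATA factors (AGATAA) at 0.968 times. The ROR site (TAGGTCA, 0.639) and the E-box CACCTG (0.871), which E2A and ZEB proteins bind, had upper bounds under 1. Among factors of general use, the SP site (GGGGCGGGG) was found in 42 regions (2.02 times), NF-Y in 96 (1.25 times) and the MYC and USF type E-box CACGTG in 69 (1.33 times). The hypoxia factor site (TACGTG) was found in 40 regions, of which 39 were positive, and the C/EBP and OCT sites in 14 and 16 regions, all of them positive. These counts and that of the distal ETS site stand beside 90.5% positive over all 1128 regions, and were not tested for direction. In all, 28 of 36 consensus sequences had a ratio above 1 and 21 a lower bound above 1. A match names a sequence and shows neither binding nor its part in the effect.

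Regions with several kinds of site were more frequent than among windows. Counting 11 kinds (AP-1, CRE, STAT, IRF/ISRE, ETS, distal ETS, RUNX, T-box, NFAT, NF-kB and CTCF), 44.5% of regions had none, against 67.9% of windows. The share with 1 kind was 37.2% against 26.8%, with 2 kinds 14.2% against 4.78%, and with 3 or more 4.08% against 0.548%. All 11 kinds singly had a ratio above 1, which by itself raises the share of regions with several. Whether kinds met more often than their single shares would give was not tested. Direction and size were close between these numbers of kinds, which were not tested. From 0 to 3 or more kinds, 89.2%, 91.9%, 90.6% and 91.3% of regions were positive, and median positive effects were 0.80, 0.79, 0.76 and 0.79.

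**Figure D4:**
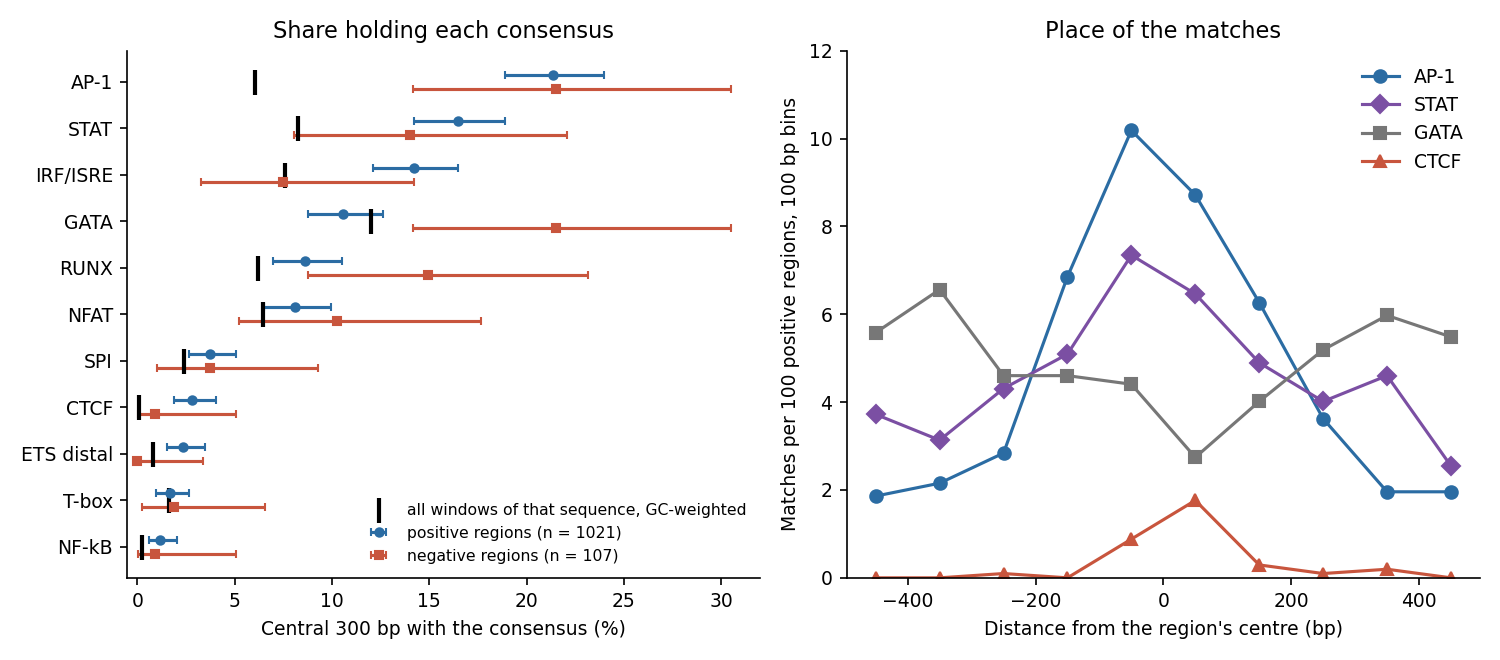
Left, percent of positive regions (circles) and negative regions (squares) with each consensus in the central 300 bp, with exact 95% binomial intervals, and the G plus C weighted share over all windows of that sequence (black bars). Right, matches per 100 positive regions in 100 bp bins by distance from the region's centre (x axis, bp). AP-1 peaked at 10.2 and 8.72 matches per 100 regions in the central bins, and the lowest GATA bin, at 2.74, was one of them.

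Some matches gathered at the centre of the regions and others did not. In positive regions AP-1 matches numbered 10.2 and 8.72 per 100 regions in the 2 central 100 bp bins, and 1.86 and 1.96 in the outermost bins 400 to 500 bp away. In negative regions the central bins had 8.41 and 11.2 per 100 regions. STAT matches in positive regions went from 3.72 and 2.55 at the outer ends to 7.35 and 6.46 in the centre, and CTCF matches from 0 at both ends to 0.881 and 1.76. GATA matches ran the other way in positive regions, with 5.58 and 5.48 at the ends and 4.41 and 2.74 in the centre. In negative regions, of which there were 107, the central GATA bins had 11.2 and 4.67 and the outermost 7.48 and 8.41. RUNX matches in positive regions were 3.13 and 3.43 in the centre and between 2.64 and 3.92 elsewhere, and those of the E-box CACCTG were 8.81 and 9.11 in the centre and between 6.17 and 10.7 elsewhere, with no central peak. These profiles were not tested. In regions narrower than 1000 bp the outer bins hold flanking sequence.

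No consensus was called for direction among the intergenic regions with G plus C in the model. Of 20 consensus sequences with enough regions in each direction, 0 were called at an adjusted p under 0.05 in the statsmodels logistic fit (0% of those tested), and 2 had an unadjusted p under 0.05. IRF/ISRE had an odds ratio for a positive effect of 2.70 (95% interval 1.24 to 5.89, unadjusted p = 0.0124, adjusted p = 0.248, n = 14627). RUNX had one of 0.52 (0.28 to 1.00, unadjusted p = 0.0485, adjusted p = 0.473, n = 14627) and was found in 88 of the positive and 16 of the negative regions. GATA was found in 10.6% of positive and 21.5% of negative regions, with an odds ratio of 0.63 (0.36 to 1.10, adjusted p = 0.523, n = 14627). With G plus C as a linear term, which does not follow the U shape described above, GATA (0.31, adjusted p = 0.000161) and RUNX (0.38, adjusted p = 0.0143, n = 14627) were called. AP-1 had an odds ratio of 1.24 (0.73 to 2.10), STAT of 1.53 (0.83 to 2.83) and the E-box CACCTG of 1.75 (0.95 to 3.23), none of them called.

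Effects of positive regions were lower with 3 consensus sequences, out of 30 fitted (10%). The differences were -0.25 for NF-kB (adjusted p = 0.00692, n = 11793), -0.19 for the distal ETS site (adjusted p = 0.00692) and -0.20 for the PU.1 type site GAGGAAGT (adjusted p = 0.0131). None was called when multi-copy regions, which had the highest effects, were left out (-0.11, -0.07 and -0.08). The medians of positive regions with and without the match lay close together and for NF-kB the other way, at 0.81 (12 regions) against 0.78, beside 0.78 against 0.79 for the distal ETS site and 0.73 against 0.79 for the PU.1 type site. NF-kB also lost its call in regions of at least 300 bp (-0.15), with protein-coding starts (-0.20) and in the whole region (-0.13). The distal ETS site lost it in regions of at least 300 bp (-0.09) and in the central 200 bp (-0.16), and turned to 0.03 with protein-coding starts, where the PU.1 type site lost it too (-0.15). AP-1 gave a difference of -0.10 (adjusted p = 0.164, n = 11793), which was 0.0059 without multi-copy regions. It was called at an absolute effect of at least 1 (-0.32, adjusted p = 0.0339, n = 3281) and in regions of at least 300 bp (-0.13, adjusted p = 0.0306, n = 9471).

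The regions were mostly solitary. Of the 1128, 96 (8.51%) lay within 5 kb of another of them and 130 (11.5%) within 5 kb of any other listed region. Of 51 adjacent pairs within 5 kb, 49 had effects of the same sign (96.1%), and the overall shares of positive and negative regions alone would give 82.8%. This was not tested. A protein-coding start lay within 100 kb of 992 regions, which were given to 850 genes. Of these, 732 genes had 1 region, 100 had 2 and 18 had 3 or more. Nearness does not show which gene a region acts on. Socs1 and Calcoco1 had 4 regions each, all single-copy and positive, with effects from 0.58 to 0.90 and from 0.73 to 1.06. Arl4c, a small GTPase gene, had 3 positive regions (0.58 to 1.56), as had Ccne1, the gene of cyclin E1 (0.52 to 1.07), and Vdac1, that of a mitochondrial pore (0.47 to 0.73). Actg1 (a cytoplasmic actin) had 2 positive regions and 1 negative one, from -1.01 to 0.79. Both regions of Elf2, an ETS factor gene, were negative (-1.14 and -0.76).

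The 10 lists of T cell genes took 68 regions near 46 of their 256 genes on chromosomes 1 to 19. The 46 genes are 18.0% of the lists, beside 4.09% of all 20780 protein-coding genes. These lists were chosen with earlier results of these data known. Of the 68 regions 60 were positive (88.2%) with a median effect of 0.71, beside 90.7% and 0.75 in the other 1060. Neither difference was tested, and no list was tested as a set.

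The Th1 regulators had 7 regions, all positive. Ifng, the gene of the defining Th1 cytokine, had 1 region 21833 bp upstream with an effect of 0.73. Tbx21 had regions 11770 bp upstream (1.01) and 31368 bp downstream (0.85), both with an AP-1 match. Runx3 had effects of 0.78 and 0.63 at 40014 and 16664 bp upstream, each with a STAT match. Il22 had 1.97 and 0.94, but each of these sequences matched 2 places. Apart from Il22, the group lay between 0.63 and 1.01 and close to the median of positive regions.

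Genes of AP-1 and BATF proteins had 5 positive regions: Bach1 0.98, Fos 0.95, Batf3 0.92 and 0.67, and Fosl2 0.63. None of these held the AP-1 heptamer itself in its central 300 bp. Genes of other helper fates had 3 positive regions, 1 at Il21 (0.74) and 2 at Ccr6 (0.61 and 0.56).

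Other T cell transcription factor genes had 17 positive and 4 negative regions. The highest effect was that at Runx1 (1.22), whose sequence is given above. Fli1, an ETS factor, had 3 regions (0.89, 0.83 and 0.69), as had Bhlhe40, a regulator of cytokine production in Th1 cells (0.72, 0.70 and 0.60). Prdm1, Foxo1 and Irf4 had 0.83, 0.80 and 0.73, and Tcf7, a gene of resting and memory T cells, 0.59 and 0.47. The negative regions were at Egr1 (-2.12), Ets1 (-0.88), Nr4a3 (-0.70) and Klf6 (-0.54). Nr4a3 also had a positive region (0.72).

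Cytokine signalling genes had 8 positive regions of 9. Cish was highest at 1.83. Socs1, which inhibits JAK kinases, had effects of 0.90, 0.90, 0.67 and 0.58 at 13173, 26648, 30886 and 15648 bp downstream of its start, and the higher pair held STAT matches. Lif, Jak2 and Csf1 had 0.67, 0.66 and 0.63. The negative region was at Il1rl1 (-0.81), which encodes the interleukin-33 receptor.

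Homing genes had 7 positive regions. The highest was near Ccr2 (2.05), with 48.8% soft-masked bases. Ccr1 had 1.56, 1.48 and 0.47, and the higher pair lay side by side on chromosome 9. S1pr1, needed for exit from lymph nodes, had 0.71 and 0.64, both with a strict STAT match, and Ccr7 had 0.56.

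T cell receptor signalling genes had 8 positive and 3 negative regions. Tnfaip3, an inhibitor of NF-kB signalling, had 1.36 with AP-1, IRF/ISRE and distal ETS matches, Rasgrp1 had 1.13 and 0.74, and Cd2 1.06. Dusp5 had 0.88 and 0.80. Malt1, which acts in NF-kB activation, had 1 negative (-0.67) and 1 positive region (0.82), and Prkcq had -0.74.

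Cytotoxic genes gave Klrg1 (0.83) and Fasl (0.62), checkpoint and costimulation genes Pdcd1 (0.66) and Cd226 (0.64), and interferon response genes Gbp4 (1.74, 2 places). Among markers of other cells, the B cell list and the list of liver and neuron genes had 0 regions at this distance, and the myeloid list had 1, at Adgre1 (0.54). These lists are short, with 10, 12 and 11 genes, and 850 of 20780 protein-coding genes (4.09%) had such a region, so that counts of 0 or 1 show little. At any position the same lists had 9, 7 and 10 listed regions.

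**Figure D5:**
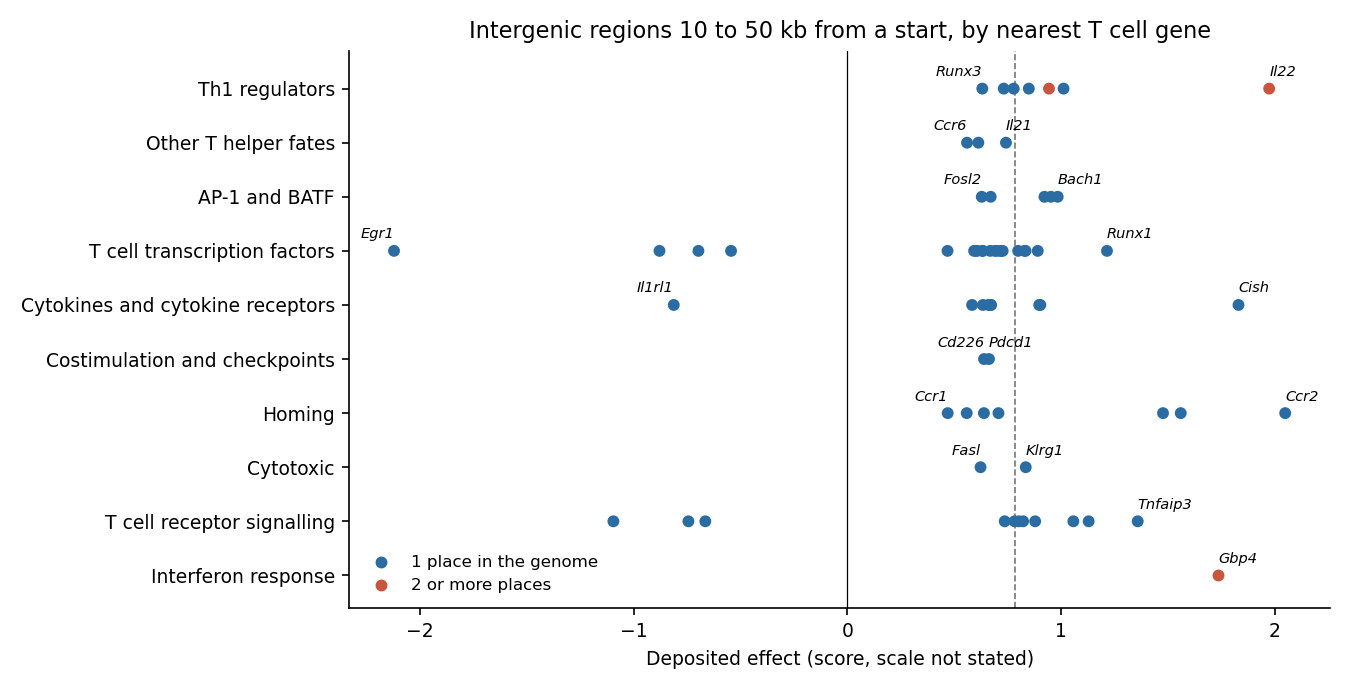
Deposited effect (x axis, a score of unstated scale) of each of the 68 regions given to a gene of 10 T cell lists (rows), coloured by the number of matching places in the genome. The dashed line is the median positive effect over all 1021 positive regions (0.78), and 8 regions lie below zero.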

How the data were processed

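STARR-seq output RNA of activated Th1 cells was measured in 2 libraries, prepared from 30 ug of nucleic acid (sizes of 200 to 400 bp). The authors deposited 1 table of regions on mm10, derived from the alignments of both libraries per the file headers, with the effect of each region as a score of unstated scale and sign, its p-value and q-value, and its width. The aligner, the region caller and the authors' test are named in no source used here. In the deposited table, q times the rank of p over p came to 114722 tested regions (within 0.5) in 82.2% of cases. The depth of the libraries and the values of each library were not analysed here.

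Position and genes were taken from GENCODE M21 and sequence from GRCm38. Copies were counted with minimap2 2.31 (k = 19, w = 10, N = 50, p = 0.5). Consensus sequences were searched on both strands in the 300 bp around each centre and in all genome windows of 300 bp under the same limits. Direction was tested with logistic models and effect with linear models (HC3 errors) over the whole table, in statsmodels 0.14.6 and Python 3.11.15, with G plus C in categories of 5 points, log2 width, masked share and position class as covariates. The class contrasts had CpG observed over expected as a further covariate. All tests were two-sided, and p-values were adjusted by the Benjamini-Hochberg method over the 3 contrasts or over the consensus sequences fitted, those held by at least 10 of the intergenic regions (with at least 2 of each direction for direction). The models treat regions as independent, and their p-values do not measure the spread between libraries. The model of consensus and direction was tested on simulated data, where it recovered only part of the planted effects, so a consensus that was not called may still differ. The regions, lists and consensus sequences were chosen with earlier results of these data known. The rule for naming regions took the 10 highest and the 10 lowest effects, the 5 lowest q and the 3 largest absolute effects of each gene list, each gene taking regions within 100 kb. Some are given only through their group, a further gene of the lists is not reported here by name, and other list genes, the highest single-copy regions, genes with several regions and the 25-base sites were chosen after their values were seen. Alternatives were a q under 0.001, an absolute effect of at least 1, merging within 500 bp, leaving out multi-copy regions, regions of at least 300 bp, protein-coding starts alone, a masked share up to 25%, linear G plus C, the whole region and the central 200 bp.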

Additional observations from a re-analysis of the deposited data

How the results depend on the processing

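The odds ratios of a positive effect by class kept their direction under all 8 alternatives, from 0.524 to 0.843 against 1 to 10 kb, from 1.19 to 2.56 against over 50 kb and from 1.25 to 1.64 against distal introns, but the calls were lost under 6, 6 and 5 of them. In that order, they were 0.773, 1.36 and 1.39 at a q under 0.001, 0.672, 1.59 and 1.26 with merged regions, 0.728, 1.41 and 1.27 without multi-copy regions, and 0.764, 1.52 and 1.35 in regions of at least 300 bp. With protein-coding starts they were 0.843 (1 to 10 kb) and 1.19 (over 50 kb), at a masked share up to 25% they were 0.709 (1 to 10 kb) and 1.25 (distal introns), and at an absolute effect of at least 1 the value was 1.41 (over 50 kb). The higher effect against distal introns lost its call at 0.108 (q under 0.001), 0.0698 (absolute effect of at least 1), 0.0248 (without multi-copy regions), 0.0256 (at least 300 bp) and 0.0622 (masked share). Against 1 to 10 kb the effect became a call at 0.0459 without multi-copy regions and 0.134 with protein-coding starts, and changed sign at -0.0104 (at least 300 bp) and -0.0163 (masked share). Against over 50 kb it became a call at -0.116 with protein-coding starts and changed sign at 0.0174 (q under 0.001) and 0.0454 (absolute effect of at least 1). The ratio for low G plus C was 0.849 at an absolute effect of at least 1. Linear G plus C gave 2 called consensus sequences for direction in place of 0. For effect, leaving out multi-copy regions gave 0 and the central 200 bp gave 1 in place of 3. Odds ratios of single consensus sequences crossed 1 for RUNX (2.20 at a q under 0.001), AP-1 (0.743 with linear G plus C and 0.952 in the central 200 bp) and STAT (0.984 with linear G plus C). AP-1 became a call for effect at -0.321 (absolute effect of at least 1) and -0.133 (at least 300 bp). Effect differences changed sign for AP-1 (0.0059 without multi-copy regions) and the distal ETS site (0.0280 with protein-coding starts). The cause of these changes was not tested. No paired analysis was possible because there was 1 group and the table combines both libraries, and for the same reason neither library could be left out in turn. The unknown depth limits what an unlisted region shows.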
